A study of Mus musculus with 4 samples.

Results

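The 10 genes described here move, store or withhold iron, or respond with the iron-binding defence protein lipocalin-2 to bacterial products. They were taken by symbol from the gene count files: Lcn2, Saa3, Slc11a1, Slc11a2, Slc40a1, Tfrc, Fth1, Ftl1, Ireb2 and Aco1. All 10 were found among 24411 gene symbols, and all 10 passed the filter on low counts, which left 9992 genes tested. Lcn2 passed it through its LPS libraries alone, since its untreated counts were below the level that the filter asks for. The cells were BV2, a microglial line of the mouse that grows without limit in culture, and the labels call them CRISPR-Cas9 knockouts of PU.1, the transcription factor encoded by Spi1. There were 2 libraries from knockout cells exposed to lipopolysaccharide (LPS), the cell wall component of Gram-negative bacteria, at 10 ng/ml, and 2 libraries from untreated knockout cells. The labels give the exposure as 4 h in the titles and as 2 h in the source names. Every library carries the PU.1 knockout label, and the knockout itself was compared with nothing. The labels do not say whether the knockout cells are 1 clone, nor whether separate cultures were used, and p-values here measure the spread between these libraries, which may be technical.

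Cells take up iron bound to transferrin through the transferrin receptor, pass it out of endosomes through the divalent metal transporter DMT1, keep it in ferritin shells made of heavy and light chains, and release it through ferroportin. Iron regulatory proteins adjust this traffic after transcription. When iron is scarce they bind a hairpin, the iron-responsive element, in target mRNAs: in the 5′ untranslated region (UTR) they block translation of ferritin and ferroportin, and in the 3′ UTR they protect the transferrin receptor mRNA from decay. Macrophages and microglia that meet bacterial products are known to withhold iron, and lipocalin-2 takes part by capturing the siderophores with which bacteria collect it. Transcript counts do not measure translation or iron itself.

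A search for the hairpin in the GENCODE vM21 coding transcripts of the 10 genes found it in 4 of them, and the matches are shown because they set apart the transcripts that iron regulatory proteins are known to bind. The pattern was a bulged C, 5 stem bases, the loop CAGTGN and 5 bases that pair with the stem, with at least 3 of 6 further pairs below the bulge. Each line gives 29 bases 5′ to 3′, with the 6 loop bases in capitals.
Fth1: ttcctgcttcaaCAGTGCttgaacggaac
Ftl1: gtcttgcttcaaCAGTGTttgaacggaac
Slc40a1: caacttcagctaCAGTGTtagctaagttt
Tfrc hairpin A: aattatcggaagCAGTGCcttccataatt
Tfrc hairpin B: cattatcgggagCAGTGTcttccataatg
Tfrc hairpin C: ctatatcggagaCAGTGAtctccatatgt
Tfrc hairpin D: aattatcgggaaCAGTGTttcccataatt
The Fth1, Ftl1 and Slc40a1 hairpins lie in 5′ UTRs and the 4 Tfrc hairpins in the 3′ UTR. On GRCm38 the Fth1 hairpin is at chr19:9982732-9982760 on the plus strand, the Ftl1 hairpin at chr7:45459779-45459807 on the minus strand and the Slc40a1 hairpin at chr1:45925465-45925493 on the minus strand. The Tfrc hairpins lie on the plus strand, A at chr16:32631219-32631247, B at chr16:32631598-32631626, C at chr16:32631663-32631691 and D at chr16:32631710-32631738. Over the longest coding transcript of 21877 genes, the same pattern occurred in the 5′ UTR of 9 genes (0.0411%) and in the 3′ UTR of 45 genes (0.206%). Slc11a2 had no match, which says only that this pattern is not in its annotated transcripts.

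The LPS libraries held 3256197 and 3749159 gene counts and the untreated libraries 4502105 and 4115011, and 1 count was worth 0.347 and 0.304 CPM (counts relative to library size) in LPS libraries and 0.191 and 0.221 CPM in untreated libraries. CPM values are relative to library sizes scaled by TMM, a scaling that assumes most genes do not change. Spi1 was counted in all 4 libraries, at 745 and 958 reads in LPS libraries and 844 and 743 in untreated libraries, which shows transcript of the gene and does not check the edit. As CPM, Spi1 was at 258 and 291 in LPS libraries and 161 and 164 in untreated libraries, 1.69-fold higher (edgeR adjusted p = 8.8e-10). Of 12 microglial and macrophage markers 11 could be tested, of which 6 were higher and 3 lower, beside 26.6% and 25.3% of all genes. Of the 6, Aif1 and Cx3cr1 were tested because of their LPS libraries, since their untreated libraries alone would not have passed the filter. P2ry12, a marker of resting microglia, was not tested, with 1 and 0 counts in LPS libraries and 12 and 7 in untreated libraries. Markers of the list differed in direction. Cx3cr1 had 25 and 33 counts in LPS libraries and 22 and 10 in untreated libraries, 2.85-fold higher (edgeR adjusted p = 0.00017). Tmem119 was lower (log2 fold change -1.78, edgeR adjusted p = 1.5e-07). Lcn2 is also a granule gene of neutrophils, and of 8 neutrophil markers in the files 4 were at 0 in every library, Ngp, Mpo, Elane and Ltf. The summed level of the neutrophil list was 1.04 and 1.52 CPM in LPS libraries and 0.574 and 1.11 CPM in untreated libraries. All 7 erythroid markers and all 5 neuron markers were at 0. Of 6 endothelial markers 3 were at 0, Pecam1, Tek and Cldn5, and the list summed to 49.9 and 34.0 CPM in LPS libraries and 22.8 and 23.2 CPM in untreated libraries. Of these, Kdr was 1.95-fold higher (edgeR adjusted p = 1.4e-05), with 87 and 88 counts in LPS libraries and 78 and 64 in untreated libraries, and Vwf did not pass (0.218). Their part in the results was not tested. In bulk RNA, a change in the share of cells and a change in RNA per cell cannot be told apart.

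Of the 10 genes, 6 were higher after LPS and 2 lower at an adjusted p below 0.05 (edgeR quasi-likelihood test, Benjamini-Hochberg over all 9992 genes), and 2 did not pass. Lcn2, Saa3, Slc11a2, Tfrc, Fth1 and Ireb2 were higher, and Slc40a1 and Ftl1 lower. Because Lcn2 was tested through its LPS libraries alone, it could be called only higher. The background was high: 51.9% of all genes tested passed, 26.6% higher and 25.3% lower, and the count of 8 in 10 has to be read beside that share. By direction the passing genes of the whole table split into 51.3% higher and 48.7% lower, against 22.4% and 77.6% with scaling by library size alone and 40.8% and 59.2% after correction for GC content, under which the median over all genes moved to -0.36 and -0.10 on the log2 scale. The values of LPS and untreated libraries did not overlap for any of the 10 genes, with LPS higher for 7 and lower for 3. This was so for 75.1% of all genes tested, 37.5% with LPS higher and 37.6% with LPS lower. The median log2 fold change of the 10 genes was 0.43, beside 0.00063 over all genes.

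**Figure D1:**
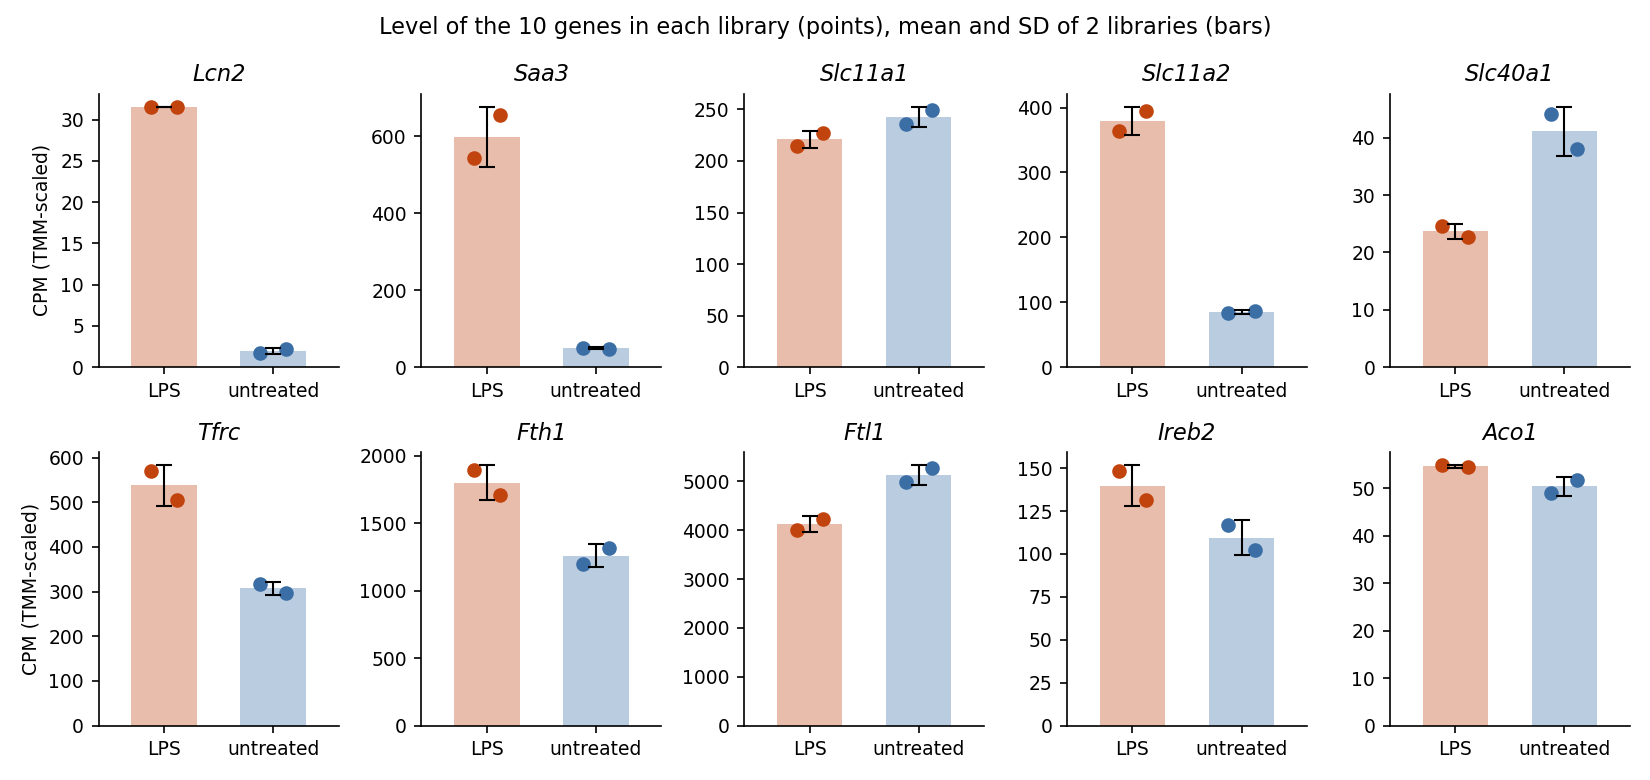
Level of each gene as CPM on TMM-scaled library sizes, on axes that start at 0. Points are single libraries, bars the mean and error bars the SD of 2 libraries, with LPS on the left and untreated on the right of each panel. Lcn2, Saa3 and Slc11a2 lie furthest apart between the groups, at 15.9-fold, 12.1-fold and 4.48-fold higher after LPS.

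Lcn2 and Saa3, the genes of the acute-phase response, had the largest changes of the 10. Lcn2, which encodes lipocalin-2, had 91 and 104 counts in LPS libraries, against 9 and 10 in untreated libraries. As CPM this was 31.5 and 31.6 after LPS and 1.72 and 2.21 untreated. Both LPS libraries lay far above both untreated libraries. The mean was 31.6 ± 0.0263 CPM in LPS libraries and 1.97 ± 0.347 CPM in untreated libraries (SD, n = 2 each), 15.9-fold higher (log2 fold change 4.00, SE 0.27, edgeR adjusted p = 7.2e-18). Saa3, which encodes a serum amyloid A protein that mouse macrophages make, had 543 and 655 CPM in LPS libraries and 50.7 and 48.0 CPM in untreated libraries. Its groups were again far apart, with the wider spread between the LPS libraries. It was 12.1-fold higher (log2 fold change 3.60, SE 0.10, edgeR adjusted p = 2.3e-31), at 599 ± 78.8 CPM in LPS libraries and 49.3 ± 1.90 CPM in untreated libraries. For each Lcn2 count there were 17.2 and 20.7 Saa3 counts in LPS libraries and 29.4 and 21.7 in untreated libraries, ranges that do not overlap but that rest on 9 and 10 untreated Lcn2 counts.

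The paralogues of Saa3 were at or near 0, with 1 Saa1 count in LPS replicate 1 as their sum and none for Saa2 or Saa4. Of 15 genes on a list of acute-phase and antimicrobial partners, 2 had enough counts to be tested and both were higher, where 26.6% of all genes were. Of these, Cfb passed the filter through its LPS libraries alone, so it could be called only higher. C3, the central complement component, was at 239 ± 8.38 CPM in LPS libraries and 47.3 ± 0.519 CPM in untreated libraries, 5.05-fold higher (edgeR adjusted p = 3.3e-25). Cfb, which encodes complement factor B, had 58 and 56 counts in LPS libraries against 1 and 2 in untreated libraries, a ratio of 60.0 (95% exact interval 20.01 to 295, counting error only). Counted without regard to strand, Cfb had 65 and 62 counts in LPS libraries and 14 and 8 in untreated libraries, 8.98-fold higher. The opposite strand held 7 and 7 Cfb counts in LPS libraries and 14 and 6 in untreated libraries. Ltf, which encodes the iron-binding protein lactoferrin of neutrophil granules, and S100a9 had no counts in any library.

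Of 7 genes for factors known to act at the Lcn2 and Saa3 genes, 7 were higher after LPS, where 26.6% of all genes were. With DESeq2 or with library size alone 6 were, since Rela, which encodes the NF-kB subunit p65, missed the threshold (adjusted p = 0.0591 and 0.103). The 7 had a median log2 fold change of 1.55. Nfkbiz, whose product IkB zeta is needed for Lcn2 induction in mouse macrophages, was at 147 ± 3.86 CPM in LPS libraries and 12.4 ± 0.259 CPM in untreated libraries, 11.8-fold higher (edgeR adjusted p = 2.2e-27). Nfkb1, which encodes the NF-kB subunit p105/p50, was 2.84-fold higher (edgeR adjusted p = 1.4e-11). Cebpd and Cebpb, chosen after their values were seen because the promoters below hold C/EBP motifs, had log2 fold changes of 1.72 (SE 0.20) and 1.55 (SE 0.17).

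The 250 bases before a RefSeq start of Lcn2 and of Saa3 on GRCm38.p6 are shown because these genes moved furthest. Capitals mark matches to the C/EBP motif TTGCNNAA on either strand. The Lcn2 stretch is chr2:32387740-32387989 and the Saa3 stretch chr7:46715677-46715926, both on the minus strand and written 5′ to 3′. The RefSeq span of Saa3 is chr7:46711998-46719615, so its stretch lies inside that span, before a start that is not the outermost.
Lcn2: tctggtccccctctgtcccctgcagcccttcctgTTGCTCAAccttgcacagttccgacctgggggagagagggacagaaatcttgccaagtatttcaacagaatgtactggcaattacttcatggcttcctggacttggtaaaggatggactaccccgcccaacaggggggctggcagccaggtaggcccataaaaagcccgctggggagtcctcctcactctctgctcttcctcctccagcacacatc
Saa3: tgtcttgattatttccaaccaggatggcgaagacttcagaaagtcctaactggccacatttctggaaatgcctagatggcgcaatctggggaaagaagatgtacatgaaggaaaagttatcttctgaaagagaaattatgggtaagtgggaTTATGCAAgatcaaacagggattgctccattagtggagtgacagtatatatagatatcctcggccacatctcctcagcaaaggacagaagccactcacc
Each held 1 match, which begins 216 bases before the start in Lcn2 and 99 bases before it in Saa3. Of 32851 promoter windows that run from 250 bases before to 50 bases after a start, 10.8% hold this motif. The RefSeq table gave windows for 8 of the 10 genes (10 windows, since Fth1 and Tfrc have 2 each), and Slc11a2 and Slc40a1 were not matched. Of the Fth1 windows, 1 held 2 C/EBP matches, at 129 and 58 bases before its start. The NF-kB consensus, searched on both strands and present in 8.46% of all windows, occurred in the Ftl1 window and in no other. The antioxidant response element core TGACNNNGC, present in 12.4% of all windows, was in none of the 10. A match is a run of letters and does not show binding.

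By Euclidean distance of centred log2 CPM over the 4 libraries, the genes nearest to Lcn2 among 8032 others with a mean of at least 10 CPM included Tap1, AI607873, Slc15a3 and Stat2. Their distances were 0.157 to 0.229 log2 units. Their log2 fold changes were 3.67 to 3.89, and with 2 groups of 2 libraries this likeness says little more than that they had changes of similar size.

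Of the uptake genes, Slc11a2 and Tfrc were higher after LPS and Slc11a1 did not pass the test. Slc11a2 encodes DMT1, which carries ferrous iron out of endosomes, and it had 1052 and 1302 counts in LPS libraries and 434 and 393 in untreated libraries. As CPM it was at 365 and 395 after LPS and at 83.0 and 86.9 untreated. The groups were wide apart and close within themselves. It was 4.48-fold higher (log2 fold change 2.16 with SE 0.09, edgeR adjusted p = 3.0e-25), behind Lcn2 and Saa3 among the 10. DMT1 has transcript forms with and without an iron-responsive element, and counts per gene cannot tell these apart.

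Tfrc, which encodes the transferrin receptor, was at 570 and 506 CPM in LPS libraries and 318 and 297 CPM in untreated libraries. Every LPS library was above every untreated one. It was 1.75-fold higher (log2 fold change 0.81, SE 0.09, edgeR adjusted p = 2.6e-11), from means of 538 ± 45.5 CPM in LPS libraries and 307 ± 15.0 CPM in untreated libraries. The log2 fold change was 0.45 with scaling by library size alone and 0.39 after GC correction, past the threshold in both.

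Slc11a1 encodes NRAMP1, the divalent metal transporter of macrophage phagosomes, and is a paralogue of Slc11a2. It was at 215 and 227 CPM in LPS libraries and 236 and 250 CPM in untreated libraries. The LPS libraries were the lower ones, with a small gap between the groups. The log2 fold change was -0.14 (SE 0.09, edgeR adjusted p = 0.198). It passed as lower with upper quartile scaling (log2 fold change -0.23, edgeR adjusted p = 0.0232) and with library size alone (-0.49, 9.0e-06), and was 0.0061 after GC correction. Within a library, Slc11a2 counts were 1.70 and 1.74 times the Slc11a1 counts after LPS and 0.352 and 0.348 times them in untreated cells.

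Of 15 further uptake and reduction genes in the files, 7 could be tested, of which 1 was higher and 2 lower, beside 26.6% and 25.3% of all genes. With DESeq2 none was higher and 1 lower, and with library size alone 4 were lower. Steap3, a ferrireductase of endosomes, was at 57.1 ± 3.36 CPM in LPS libraries and 99.8 ± 8.06 CPM in untreated libraries (log2 fold change -0.80, SE 0.12, edgeR adjusted p = 1.1e-07). Slc39a14, which encodes the metal importer ZIP14, was lower by the same test (log2 fold change -0.50, edgeR adjusted p = 0.00475), a call lost with DESeq2 (adjusted p = 0.101) and without untreated replicate 2 or LPS replicate 2 (0.0963 and 0.0597). Vps35, a retromer subunit that takes part in endosomal recycling, was 1.25-fold higher (edgeR adjusted p = 0.00511). It missed the threshold with DESeq2 (adjusted p = 0.0569). On the log2 scale Vps35 was at -0.0385 when only library size was used and -0.15 after GC correction. The other 8 had no counts at all, among them Cd163, the haemoglobin scavenger receptor, and Tfr2. The lipocalin-2 receptor genes were nearly silent: Slc22a17 had 1 count, in untreated replicate 2, and Lrp2 had 0 and 1 counts in LPS libraries and 2 and 2 in untreated libraries. Bdh2, which encodes an enzyme described as making a mammalian siderophore, had 22 and 16 counts in LPS libraries and 6 and 9 in untreated libraries. It was 3.94-fold higher (edgeR adjusted p = 0.000146), and passed the filter on low counts through its LPS libraries alone.

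**Figure D2:**
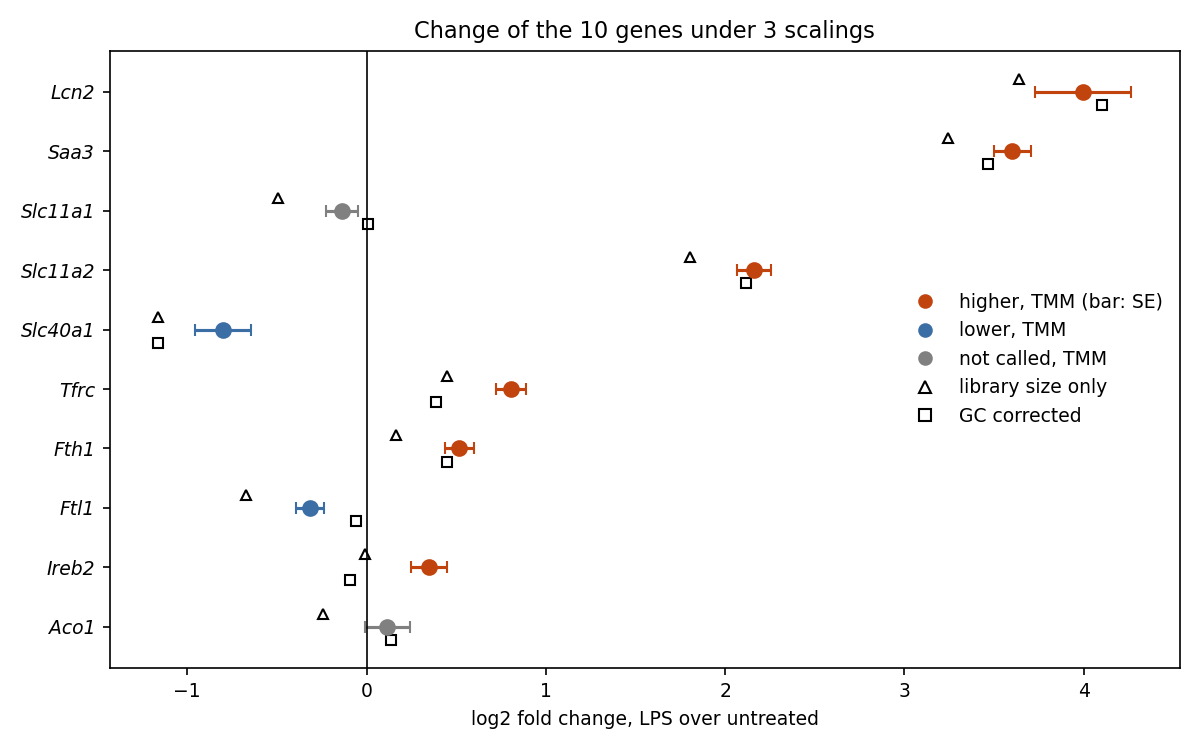
Log2 fold change of LPS over untreated for each gene. Filled circles with SE bars are the TMM-scaled values, coloured by call, open triangles the values with library size alone and open squares those after GC correction. Lcn2, Saa3 and Slc11a2 lie furthest to the right in all 3, while Ireb2 and Aco1 cross 0 with library size alone, and Ireb2 and Slc11a1 cross it after GC correction.

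The ferritin chains changed in opposite directions. Fth1, which encodes the heavy chain with the ferroxidase site, was at 1892 and 1709 CPM in LPS libraries and 1199 and 1317 CPM in untreated libraries. Its LPS libraries were both above the untreated ones. It was 1.43-fold higher (log2 fold change 0.52, SE 0.08, edgeR adjusted p = 4.7e-07). Ftl1, which encodes the light chain that aids core formation, was at 4011 and 4237 CPM in LPS libraries and 4995 and 5278 CPM in untreated libraries. Here the LPS libraries were the lower ones, and the log2 fold change was -0.32 (SE 0.08, edgeR adjusted p = 0.000722). Scaled by library size only, Fth1 missed the threshold (log2 fold change 0.16, edgeR adjusted p = 0.125). Ftl1, whose longest transcript has 58.1% GC, did not pass after GC correction (-0.06, adjusted p = 0.564) or without untreated replicate 2 (-0.28, adjusted p = 0.0765).

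The ratio of the chains does not depend on library scaling. It is not corrected for GC content, and that correction brought the chains closer, with log2 fold changes of 0.45 for Fth1 and -0.06 for Ftl1. There were 2.12 and 2.48 Ftl1 counts for each Fth1 count in LPS libraries, against 4.17 and 4.01 in untreated libraries. Per kilobase of the principal transcripts this was 2.03 and 2.38 after LPS and 4.00 and 3.85 untreated. Fth1 made up 32.0% (95% exact interval 31.3% to 32.8%) and 28.7% (28.1% to 29.4%) of ferritin counts in LPS libraries, and 19.4% (18.9% to 19.8%) and 19.97% (19.5% to 20.4%) in untreated libraries. The groups did not overlap, though an exact permutation test of 2 against 2 cannot give a two-sided p below 0.333. Both chains together took 0.523% and 0.522% of gene counts in LPS libraries and 0.719% and 0.725% in untreated libraries. On TMM-scaled library sizes their sum was 5903 and 5946 CPM after LPS and 6194 and 6595 CPM untreated. Reads placed at several positions are not in these counts, and ferritin genes have near-identical processed copies in the mouse genome, so the levels of both chains are uncertain.

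Of 8 other tested genes of iron storage, chaperoning and ferritin turnover, 4 were higher and none lower, beside 26.6% and 25.3% of all genes. With DESeq2 or after GC correction 2 were higher, and with library size alone 2 were higher and 3 lower. Hif1a, the hypoxia-inducible factor gene, was 2.42-fold higher, and Tax1bp1, an autophagy receptor gene, 1.66-fold higher (edgeR adjusted p = 1.9e-16 and 3.6e-06). Fbxl5, which encodes the iron-sensing ubiquitin ligase subunit that removes iron regulatory proteins, was at 63.4 ± 8.73 CPM in LPS libraries and 45.9 ± 1.09 CPM in untreated libraries, 1.38-fold higher (edgeR adjusted p = 0.00175). Its call was lost with DESeq2, with library size alone, after GC correction and without LPS replicate 2 (adjusted p = 0.0507, 0.495, 0.524 and 0.0731). Ncoa4, the receptor that delivers ferritin to lysosomes, was chosen after its value was seen and was 1.21-fold higher (edgeR adjusted p = 0.0110). It missed the threshold with upper quartile scaling, DESeq2 and GC correction (adjusted p = 0.101, 0.0695 and 0.916) and without untreated replicate 1 or 2 (0.0781 and 0.141). Its log2 fold change was -0.0878 when only library size was used (adjusted p = 0.484).

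Slc40a1, which encodes ferroportin, the iron exporter, had 71 and 75 counts in LPS libraries and 231 and 172 in untreated libraries. As CPM it was at 24.6 and 22.8 after LPS and at 44.2 and 38.0 untreated. Both LPS libraries were below both untreated ones. The mean was 23.7 ± 1.30 CPM in LPS libraries and 41.1 ± 4.34 CPM in untreated libraries (log2 fold change -0.80, SE 0.16, edgeR adjusted p = 2.2e-05). It was the largest fall of the 10, and the log2 fold change was -1.16 both with library size alone and after GC correction. Set against the exporter, there were 23.2 and 22.2 Tfrc counts for each Slc40a1 count in LPS libraries and 7.20 and 7.80 in untreated libraries.

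Of 12 genes of iron export and the hepcidin axis, 4 could be tested, of which 2 were higher and 1 lower, beside 26.6% and 25.3% of all genes. Of the 2, Cp passed the filter through its LPS libraries alone, so it could be called only higher. Cp encodes ceruloplasmin, a ferroxidase that works with ferroportin, and had 27 and 30 counts in LPS libraries against 1 and 1 in untreated libraries, a ratio of 45.0 (95% exact interval 11.9 to 380, counting error only). Counted without regard to strand, Cp had 31 and 35 counts in LPS libraries and 8 and 7 in untreated libraries, 6.80-fold higher. The opposite strand held 10 and 14 Cp counts in LPS libraries and 29 and 28 in untreated libraries. In untreated libraries that is more than the unstranded Cp counts, so the strands do not add up to the unstranded values. The reason was not tested. Bmpr1a, a bone morphogenetic protein receptor gene, was 1.95-fold higher. Neo1, which encodes neogenin, a receptor of the hepcidin regulator hemojuvelin, was at 113 ± 4.81 CPM in LPS libraries and 224 ± 0.656 CPM in untreated libraries (log2 fold change -0.99, SE 0.09, edgeR adjusted p = 1.2e-12). Hamp, the gene of hepcidin itself, had 1 count in untreated replicate 2 and none in the other 3 libraries.

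**Figure D3:**
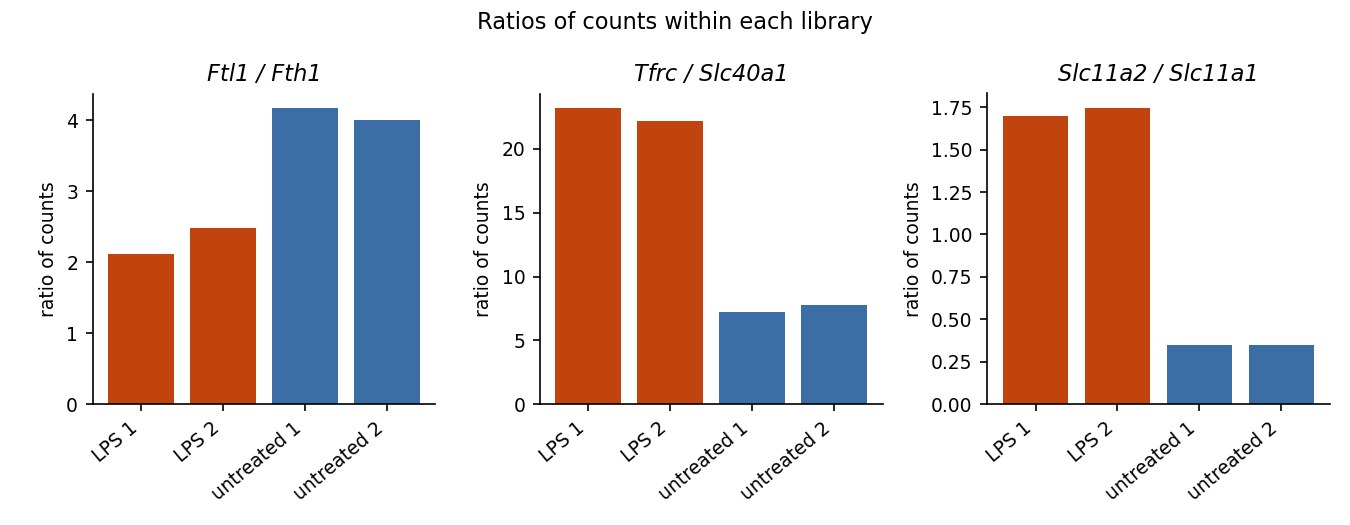
Ratio of raw counts of gene pairs within each library, on axes that start at 0. Ftl1 over Fth1 is 2.12 and 2.48 in LPS libraries and 4.17 and 4.01 in untreated libraries, while Tfrc over Slc40a1 and Slc11a2 over Slc11a1 are higher in both LPS libraries.

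Of the genes for the iron regulatory proteins, Ireb2 passed the test and Aco1 did not. Ireb2 encodes IRP2, which is degraded when iron is plentiful, and was at 148 and 131 CPM in LPS libraries and 117 and 102 CPM in untreated libraries. The groups lay close together, with the lower LPS library above the higher untreated one. It was 1.27-fold higher (log2 fold change 0.35 with SE 0.10, edgeR adjusted p = 0.00332). The log2 fold change was -0.01 with library size alone and -0.09 after GC correction, and without untreated replicate 2 it was 0.25 (adjusted p = 0.149). The longest Ireb2 transcript has 39.0% GC. Aco1 encodes IRP1, which serves as the cytosolic aconitase when it holds an iron-sulphur cluster. It was at 54.8 and 54.3 CPM in LPS libraries and 49.0 and 51.8 CPM in untreated libraries, 1.08-fold higher (log2 fold change 0.12 with SE 0.13, edgeR adjusted p = 0.454). The call for Aco1 was the same in all 14 alternatives, and its log2 fold change turned to -0.24 with library size alone.

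Genes with the hairpin in the same UTR were called in both directions. Of the genes with a match in the 5′ UTR, 8 were in the files and 5 could be tested. Of these, 1 was higher and 3 lower. Fth1 was higher, and Ftl1 and Slc40a1 were among those that were lower. Ppia, which encodes cyclophilin A, did not pass (log2 fold change -0.03). Of 32 tested genes with a match in the 3′ UTR, 8 were higher, Tfrc among them, and 11 lower. Tnip3, also among the higher ones, was tested because of its LPS libraries alone. Over all genes 26.6% were higher and 25.3% lower. The counts for the 3′ UTR are near the shares of all genes and show nothing particular to genes with that match. Those for the 5′ UTR rest on 5 tested genes, too few to set against these shares. The median log2 fold change was -0.32 for the 5′ and -0.19 for the 3′ matches, beside 0.00063 over all genes.

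Per kilobase of the principal transcript, the order of mean levels after LPS was Ftl1 at 4260, Fth1 at 1938, Saa3 at 1079, Slc11a2 at 126, Tfrc at 110, Slc11a1 at 95.4, Lcn2 at 34.5, Ireb2 at 24.2, Aco1 at 14.2 and Slc40a1 at 7.03 CPM per kilobase. In untreated cells it was Ftl1 at 5306, Fth1 at 1354, Slc11a1 at 105, Saa3 at 88.9, Tfrc at 62.9, Slc11a2 at 28.1, Ireb2 at 19.0, Aco1 at 13.1, Slc40a1 at 12.2 and Lcn2 at 2.15 CPM per kilobase. Neighbours in these orders did not overlap between libraries, except Aco1 and Slc40a1 in untreated cells. Lcn2 stood above Ireb2, Aco1 and Slc40a1 after LPS and below all other members in untreated cells. With the longest transcript in place of the principal one, Tfrc came before Slc11a2 and Ireb2 before Lcn2 after LPS, and Tfrc came before Saa3 in untreated cells.

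Heme genes were called in both directions, as were all genes tested, at 26.6% higher and 25.3% lower. Of 8 tested genes of heme synthesis, 2 were higher and 2 lower, near those shares. The counts were 1 and 5 with library size alone and 1 and 1 with DESeq2. Alas1, the first enzyme of the pathway in most cells, was at 133 ± 2.47 CPM in LPS libraries and 66.3 ± 2.30 CPM in untreated libraries, 2.00-fold higher (edgeR adjusted p = 3.0e-11). Alad, the next enzyme, fell to 4.70 ± 0.211 CPM in LPS libraries, against 16.7 ± 3.22 CPM in untreated libraries (log2 fold change -1.83, SE 0.28, edgeR adjusted p = 2.4e-07). Uros was 1.44-fold higher (edgeR adjusted p = 0.0211), a call lost with DESeq2 (adjusted p = 0.197), with upper quartile scaling or library size alone (0.0598 and 0.483) and without untreated replicate 2 or LPS replicate 1 (0.239 and 0.0554). Of 10 tested genes of heme uptake, export and breakdown, 3 were higher and 2 lower, again near the shares of all genes. After GC correction 6 were higher. Hmox1, the inducible heme oxygenase that frees iron from heme, was at 311 ± 2.07 CPM in LPS libraries and 190 ± 8.80 CPM in untreated libraries, 1.63-fold higher (edgeR adjusted p = 2.0e-09). Blvrb, a biliverdin reductase gene, was 2.15-fold and Hmox2 1.52-fold higher, and Hmox2 lost its call with library size alone (adjusted p = 0.0840).

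Of 27 tested genes of mitochondrial iron and iron-sulphur cluster assembly, 4 were higher and 8 lower, against 26.6% and 25.3% of all genes. With library size alone, 2 were higher and 16 lower. Slc25a37, which encodes the mitochondrial iron importer mitoferrin-1, was at 41.8 ± 4.13 CPM in LPS libraries and 12.4 ± 0.907 CPM in untreated libraries, 3.35-fold higher (edgeR adjusted p = 3.0e-12). Fdxr, the ferredoxin reductase gene, was at 10.4 ± 0.972 CPM in LPS libraries and 29.7 ± 0.432 CPM in untreated libraries (log2 fold change -1.52, SE 0.20, edgeR adjusted p = 6.8e-09). Over all 9 lists beside the 10 genes, 111 symbols were listed, 110 were in the files and 74 could be tested. Of these, 26 were higher and 15 lower, or 55.4% beside 51.9% of all genes. Among the 26, Cfb, Cp and Bdh2 were tested because of their LPS libraries alone.

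**Figure D4:**
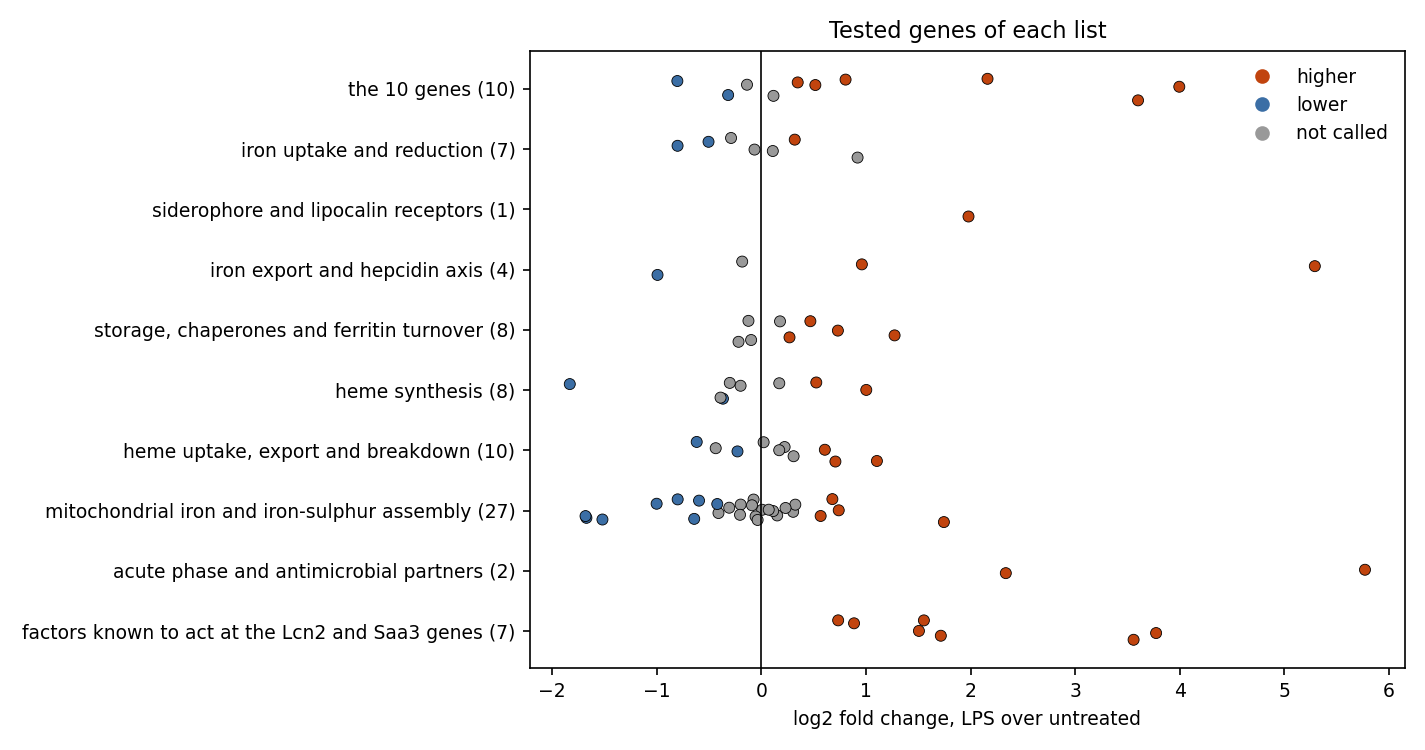
Log2 fold change of LPS over untreated for each tested gene, 1 row per list with the number tested in brackets. Points are single genes, coloured by call, and jittered up and down within a row. The factors known to act at Lcn2 and Saa3 all lie above 0, while mitochondrial iron and iron-sulphur genes lie on both sides.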

How the data were processed

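Per the labels' protocols, ribosomal RNA was removed and stranded libraries were sequenced from both ends. The submitters' processing notes name STAR 2.5.1, Trimmomatic 0.33, CASAVA 1.8.2 and DESeq2. They also name hg19, a human build, although organism and symbols are mouse. The annotation was not given in the sources used here. Coordinates above are therefore those of the reference tables and not of the counting. Each deposited file gives unscaled counts of reads per gene in STAR's layout, as whole numbers, 1 file per library, and its 4 summary lines were left out of library sizes. Such counts hold uniquely placed reads. Of these, 59.1% and 57.4% in LPS libraries and 53.0% and 51.8% in untreated libraries fell in no annotated feature.

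The reverse-strand column was used, which held 78.7 to 95.3 times as many gene counts as the forward-strand column. Counts were filtered by edgeR's expression filter (9992 of 12982 genes with any count kept), scaled by TMM and tested with edgeR 4.0.16 in R 4.3.3 (robust quasi-likelihood, 1 term for treatment, two-sided, threshold 0.05), after a test on simulated data. SE is approximate, from the log2 fold change over the root of the F statistic. Sampling noise was exceeded between the libraries of each group (chi-square over degrees of freedom 2.44 for LPS and 1.52 for untreated). The genes, lists and tests were chosen with earlier results of these data known. Named genes are the 10 members, up to 3 genes per list with the smallest p among those that passed with a mean of at least 2 CPM, Spi1 and the 5 nearest profiles to Lcn2, and other names were chosen after their values were seen. Some genes that this rule names are not reported here. In the lists 3 symbols were matched through RefSeq synonyms. The alternatives were 3 scalings, DESeq2 1.42.0, 2 filters, unstranded counts, a replicate block, leaving out each library or 5 abundant entries, and GC correction by a loess fit per library on the longest GENCODE vM21 transcript, which 96.6% of the tested genes had. The length of the longest transcript was added after the data were seen. Intervals cover counting error only.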

Additional observations from a re-analysis of the deposited data

Results flagged for a closer look

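The forward-strand column entered no test of its own above, and was used only for Cfb and Cp and in choosing the strand. In it, reads on the strand opposite to Fth1 numbered 16 and 33 in LPS replicates 1 and 2, against 6 and 4 in untreated replicates 1 and 2. They made up 0.292% and 0.583% of the stranded Fth1 counts in LPS libraries and 0.0956% and 0.0671% in untreated libraries. Over all genes the opposite strand held 1.04% and 1.26% in LPS libraries and 1.16% and 1.09% in untreated libraries, so the share at Fth1 was below that of the average gene in each library. No other gene of the 10 had at least 3 such counts in both LPS libraries.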

How the results depend on the processing

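Across 14 alternatives Lcn2, Saa3, Slc11a2, Slc40a1 and Tfrc kept their direction and their call. The log2 fold change was 3.64 to 4.16 for Lcn2, 3.24 to 3.73 for Saa3, -1.16 to -0.69 for Slc40a1 and 0.39 to 0.89 for Tfrc. With scaling by library size alone, 1379 genes were higher and 4778 lower, pathway genes lower numbered 32, Slc11a1 passed (log2 fold change -0.49), Fth1 did not (0.16), and Ireb2 (-0.0103), Aco1 (-0.24) and Vps35 (-0.0385) turned negative. With upper quartile scaling Slc11a1 passed (-0.23). DESeq2 called 1838 genes higher and 1486 lower. After GC correction 1 of the 10 genes was lower, Ftl1 did not pass (-0.0583), and Slc11a1 (0.0061), Ireb2 (-0.0908) and Vps35 (-0.15) turned. Measured from the median of all genes, the GC-corrected log2 fold changes were 0.49 for Tfrc, 0.04 for Ftl1 and 0.01 for Ireb2. The cause of these changes was not tested.

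Leaving out 1 library gave 5 to 6 of the 10 genes higher and 1 to 2 lower, with Ftl1 at -0.36 to -0.28 and Ireb2 at 0.25 to 0.44, and the lower counts came without untreated replicate 2. The lone library of a group is then assumed to vary like the others. With the replicate number as a block, 6 of the 10 genes were higher and 2 lower, and over all genes 2658 were higher and 2513 lower. The labels do not say that numbers pair the libraries, and the correlation of same-numbered deviations was -0.04. Depth limits Lcn2 in untreated cells, at 9 and 10 counts, and most genes of the hepcidin and lipocalin receptor lists.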
